A study of Mus musculus with 6 samples.

Results

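Ano3, Cited4 and Gpr55 are 3 mouse genes of unrelated families that stood several-fold higher in the fetal testes labelled cKO than in those labelled WT. They were selected on that difference in these counts, and 5 relatives, Ano1, Ano4, Ano6, Cited1 and Cited2, were added for contrast. These 8 genes were found by name among 42747 rows of the count table, and all 8 were among the 18383 that passed the low-count filter. The data are 6 RNA-seq libraries of whole testis at E16.5, 3 from cKO mice and 3 from WT mice, made from poly(A)-selected RNA. The series concerns CK1α, a serine/threonine kinase that takes part in the breakdown of β-catenin and whose gene is Csnk1a1, and the comparison asks what its loss from Sertoli cells does to the transcripts of the testis. The sources used here name neither the floxed allele, the Cre line that makes cKO conditional, the strain, nor the alleles of the WT mice. Nor do they say more about the replicates than that each group had 3 mice.

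Anoctamins are membrane proteins with many membrane-spanning segments. Some, such as Ano1, are chloride channels opened by calcium, and others, such as Ano6, let phospholipids cross between the leaflets of the membrane when calcium rises. CITED proteins do not bind DNA themselves. They bind the histone acetyltransferases CBP and p300 through an acidic C-terminal region, and so act as coactivators of factors such as TFAP2, while Cited2 also limits the access of the hypoxia factor HIF1A to p300. Gpr55 is a G protein-coupled receptor that responds to the lipid lysophosphatidylinositol and signals through G proteins to small GTPases.

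Totals ran from 15092619 to 17431546 counts in cKO libraries and from 15281569 to 16646569 in WT libraries. A gene is called where edgeR's quasi-likelihood test gave an adjusted p under 0.05 (Benjamini-Hochberg, all tested genes). CPM is edgeR's scaled count relative to library size, ± is the SD of 3 libraries, and every log2 fold change is cKO over WT. Of the tested genes 3.35% were called, 276 higher (1.50%) and 339 lower (1.84%). Leaving out cKO library 3 gave 134 higher and 170 lower. Leaving out WT library 1 gave 105 higher and 218 lower, WT library 2 gave 180 and 190, and WT library 3 gave 105 and 167. The groups did not overlap for 21.6% of genes, with cKO above WT for 10.7% and below for 10.9%. Over all tested genes, limma-voom gave 268 calls on the high side and 335 on the low side, while DESeq2 gave 527 and 574. The share of all tested genes with an unadjusted p under 0.05 is not given here. List counts at that looser cutoff therefore have no background, and the shares of edgeR calls are no measure for them. Csnk1a1 itself was at 393 ± 14.1 CPM in cKO libraries, against 372 ± 24.0 in WT (edgeR adjusted p = 0.798), and because the deleted part is not named in the sources, this does not check the labels. The 12 Sertoli markers were detected in every library and summed to 1091 to 1557 CPM in cKO, against 2939.9 to 3936 CPM in WT, with 11 of them called lower.

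**Figure D1:**
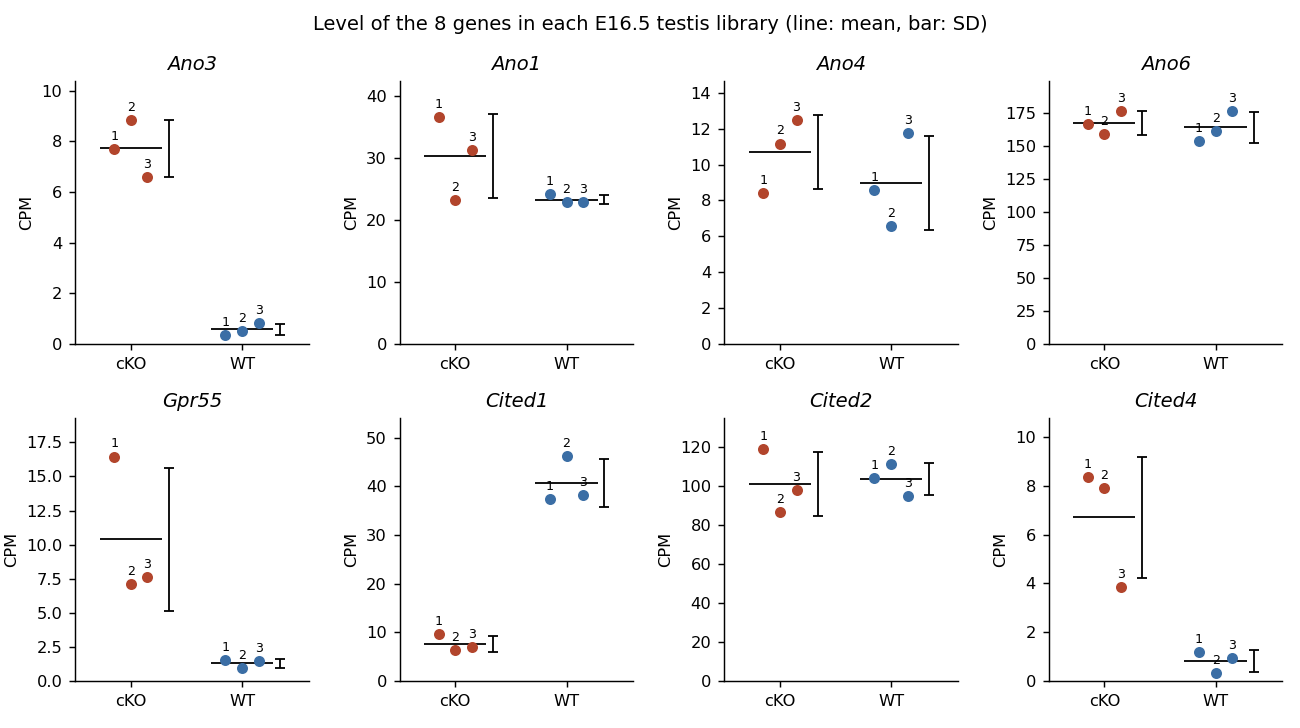
Level of each of the 8 genes in CPM, 1 point per library, with the mean and SD of each group, cKO left of WT. Ano3, Cited4 and Gpr55 lie apart on the high side in cKO and Cited1 on the low side, whereas the points of Ano1, Ano4, Ano6 and Cited2 overlap.

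Ano3, an anoctamin known from the nervous system, variants of which cause dystonia in people, was close to silent in WT testes and readily detected in cKO testes. It had 117, 133 and 115 counts in cKO libraries 1, 2 and 3, against 6, 8 and 14 counts in WT libraries 1, 2 and 3. In CPM these were 7.70, 8.84 and 6.61 in cKO, against 0.373, 0.532 and 0.837 in WT. The groups did not overlap: the lowest cKO library stood 7.90-fold above the highest WT library, and the cKO libraries lay within 1.34-fold of each other. The log2 fold change was 3.71 (SE 0.372), or 13.1-fold, which is given as a description and without a test because it chose the gene. Only 1 of 3 WT libraries reached the 0.642 CPM that the filter asks of 3 libraries, so the gene was kept through its cKO values. By FPKM, a count divided by gene length and library size, 21.0% of tested genes lay below Ano3 in cKO and 0.125% in WT. Because genes with so few counts in both groups were filtered out, the WT place near the bottom followed from the filter. It is no contrast between the groups. The gene spans positions 116700166 to 117035566 of chromosome 2 on the minus strand (the files give C57BL/6NJ coordinates). In RNA of a whole organ, more or fewer cells of a type and more or less RNA per cell cannot be told apart, here and for all that follows.

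RefSeq gives Ano3 a pair of start sites on GRCm38.p6. The 250 bases before each are printed because they are the promoter side of the gene with the widest difference of the 8. Capitals mark a TCF/LEF core, the element read by the DNA-binding partners of β-catenin, searched as CTTTGA or CTTTGT on both strands. These 2 words cannot occupy the same bases on 1 strand.
Ano3, outer start, chr2:110950245-110950494, minus strand: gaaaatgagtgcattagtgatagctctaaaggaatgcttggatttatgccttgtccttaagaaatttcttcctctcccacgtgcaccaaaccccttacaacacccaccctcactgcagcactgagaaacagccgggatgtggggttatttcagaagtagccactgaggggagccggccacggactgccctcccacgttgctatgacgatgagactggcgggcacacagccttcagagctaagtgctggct
Ano3, inner start, chr2:110840060-110840309, minus strand: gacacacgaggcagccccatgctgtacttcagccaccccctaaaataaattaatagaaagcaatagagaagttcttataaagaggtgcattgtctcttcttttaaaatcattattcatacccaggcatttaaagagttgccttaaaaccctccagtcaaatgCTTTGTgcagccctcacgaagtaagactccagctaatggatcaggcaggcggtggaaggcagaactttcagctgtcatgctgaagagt
The outer window held neither core. The inner one held CTTTGT, its first base 88 bases before the start, and the TATA box word TATAAA 175 bases before it. Among 32851 such windows 13.8% hold CTTTGA and 16.46% hold CTTTGT, so matches are common. Neither window held a p53 half-site, found in 7.13% of windows. GC content was 52.4% in the outer window, the median of all windows, and 43.6% in the inner one. A match describes letters only, and which start the testis uses was not measured.

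The 3 anoctamin relatives overlapped between the groups. Ano6, the calcium-activated scramblase, had 167, 159 and 176 CPM in cKO libraries 1, 2 and 3, against 154, 161 and 176 CPM in WT libraries 1, 2 and 3. Its groups overlapped (log2 fold change 0.03, 95% confidence interval -0.22 to 0.28, edgeR adjusted p = 0.930). Ano1, the calcium-activated chloride channel, had 36.6, 23.2 and 31.3 CPM in the cKO libraries, against 24.2, 22.9 and 22.8 CPM in the WT libraries. Its cKO libraries 1 and 3 lay above all WT libraries and cKO library 2 among them, with no call (0.38, interval -0.00 to 0.77, edgeR adjusted p = 0.324). Ano4, a close relative of Ano3 in sequence, had 8.43, 11.2 and 12.5 CPM in the cKO libraries, against 8.59, 6.59 and 11.8 CPM in the WT libraries. These overlapped as well (0.25, interval -0.32 to 0.82, edgeR adjusted p = 0.698).

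Across the whole family, the 9 anoctamins other than Ano3 gave 0 calls in either direction by edgeR and by limma-voom. An unadjusted p under 0.05 was reached by 1 on the high side and 0 on the low side, and DESeq2 called 1 higher. Ano8 was that gene, with groups apart at 47.3 ± 4.21 CPM in cKO libraries, against 32.7 ± 5.32 in WT (0.53, SE 0.152, edgeR adjusted p = 0.0956). The 9 ran from -0.44 for Ano2, a calcium-activated chloride channel of sensory neurons, to 0.53 for Ano8, with a median of 0.03, against 0.00 over all tested genes.

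Levels between genes are compared as FPKM. In cKO testes the anoctamins followed the order Ano6 (29.1 ± 1.51 FPKM), Ano10 (13.6 ± 0.746), Ano8 (12.4 ± 1.11), Ano1 (5.79 ± 1.28), Ano4 (1.46 ± 0.283), Ano3 (1.06 ± 0.154), Ano9 (0.891 ± 0.369), Ano5, Ano7 and Ano2 (0.247 ± 0.0819). Ano3 thus stood between Ano4 and Ano9, and its libraries overlapped those of both. Ano10 also overlapped Ano8 in cKO, and Ano5 overlapped Ano9 and Ano7 there, while Ano4 overlapped Ano9 in WT. In WT testes Ano3 came last of 10 at 0.0796 ± 0.0325 FPKM, 4.22-fold below Ano2 (0.336 ± 0.0932 FPKM) and without overlap, while Ano6 (28.5 ± 2.08 FPKM), Ano10, Ano8, Ano1 and Ano4 again led. Ano3 made up 1.63 ± 0.292% of the family's summed FPKM in cKO, against 0.134 ± 0.0525% in WT. Ano3 was picked for its rise and kept through its cKO values. The difference in its place and share between the groups follows from that choice and is no separate result. Ano6 made up 44.5 ± 0.748% in cKO, against 47.9 ± 2.71% in WT.

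**Figure D2:**
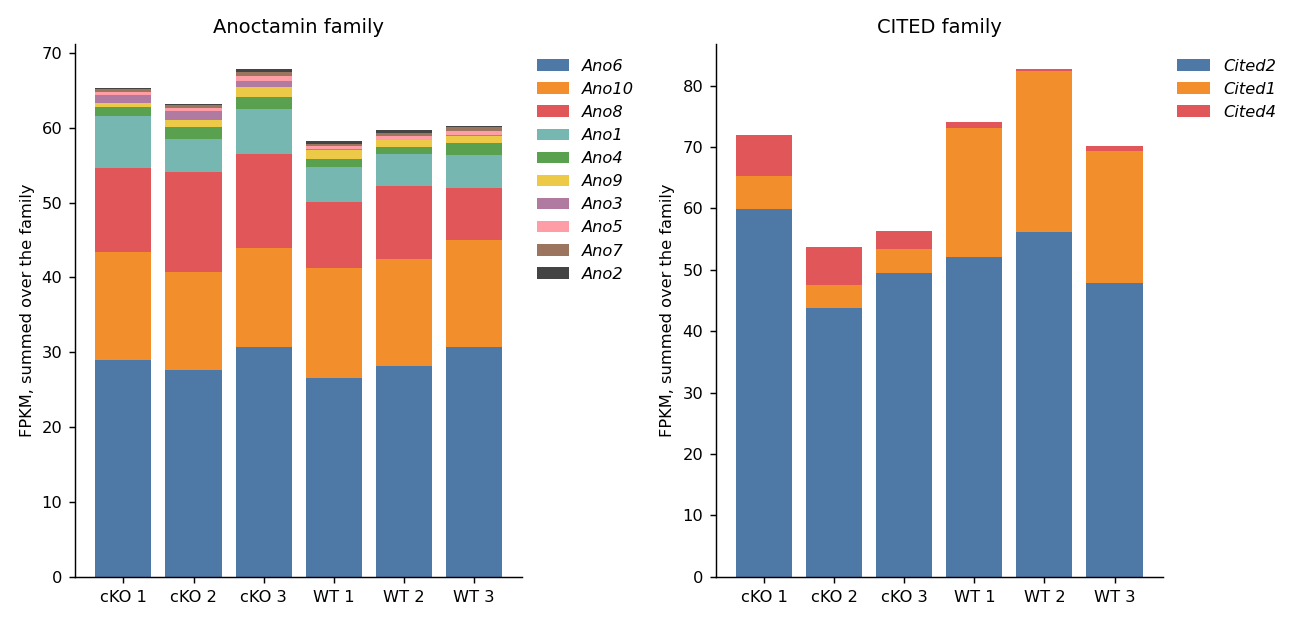
Make-up of the anoctamin and CITED families by FPKM in each library, cKO libraries left of WT libraries. Ano3 is a thin share of the anoctamins even in cKO, whereas among the CITED genes the share of Cited1 is smaller and that of Cited4 larger in every cKO library. Ano3 and Cited4 were picked for their rise, so their larger shares in cKO follow from that choice.

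Genes with activities related to anoctamins were set beside them. Of 19 other scramblases and flippases 17 were tested, with 0 calls by edgeR and limma-voom. An unadjusted p under 0.05 was reached by 1 on the high side and 0 on the low side, and DESeq2 called 1 higher, Plscr3, at 111 ± 10.7 CPM in cKO libraries, against 81.7 ± 8.04 in WT (0.44, edgeR adjusted p = 0.0925). Plscr4 was next by p and not called (0.36, edgeR adjusted p = 0.365). Of 15 other channels gated by calcium or sodium, 12 were tested, and edgeR called 2 lower and 0 higher. Kcnt1, the sodium-activated potassium channel Slack, with which Ano3 is reported to work in rat sensory neurons, fell to 58.8 ± 2.65 CPM in cKO testes, against 88.5 ± 3.48 in WT (-0.59, SE 0.112, edgeR adjusted p = 0.0144). Ano3 and Kcnt1 thus differed in opposite directions. Clca1, a secreted modulator of calcium-activated chloride currents, fell to 3.88 ± 1.14 CPM in cKO testes, against 9.18 ± 1.27 in WT (-1.24, SE 0.281, edgeR adjusted p = 0.0369). Trpm5, a calcium-activated cation channel, was not called by edgeR (0.40, adjusted p = 0.105) or limma-voom, but was higher by DESeq2 and at an unadjusted p under 0.05. Neither call held when cKO library 3 or any WT library was left out, with edgeR adjusted p of 0.0631 to 0.0867 for Kcnt1 and 0.0833 to 0.200 for Clca1. The medians were 0.11 for the scramblases and flippases and -0.03 for the channels.

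The CITED family differed in make-up. Cited4, a coactivator studied in the heart, had 127, 119 and 67 counts in cKO libraries 1, 2 and 3, against 19, 5 and 16 counts in WT libraries 1, 2 and 3. In CPM these were 8.36, 7.91 and 3.85 in cKO, against 1.18, 0.333 and 0.957 in WT. Every cKO library lay above every WT library, though cKO library 3 held less than the other 2. Only 2 of 3 WT libraries reached the minimum that the filter asks of 3, so Cited4 too was kept through its cKO values. The log2 fold change was 3.00 (SE 0.476), or 8.01-fold, again a description without a test. With 1 library left out it ran from 2.65 to 3.34.

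Cited1, a coactivator known as a marker of kidney progenitors, differed the other way. It had 145, 97 and 121 counts in cKO libraries 1, 2 and 3, against 602, 696 and 639 counts in WT libraries 1, 2 and 3. In CPM these were 9.55, 6.45 and 6.96 in cKO, against 37.5, 46.3 and 38.2 in WT, with no overlap. Cited1 fell by 2.41 on the log2 scale (SE 0.190, 95% confidence interval -2.83 to -1.99, edgeR adjusted p = 8.31e-05), or 5.31-fold, in 3 of 3 cKO libraries. It was the 1 gene called lower among the 5 relatives, where 1.84% of all tested genes were. None of the 5 was higher by edgeR, DESeq2 or limma-voom, or at an unadjusted p under 0.05 (0 genes). The call of Cited1 held in all 16 alternative fits, at -2.60 to -2.17. Sertoli markers were lower in the same libraries, and their part in this result was not tested.

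Cited2, which in mice is needed for the adrenal and acts with Wt1 in the early gonad, had 119, 86.9 and 98.0 CPM in cKO libraries 1, 2 and 3, against 104, 111 and 95.03 CPM in WT libraries 1, 2 and 3. The groups overlapped (-0.03, interval -0.33 to 0.27, edgeR adjusted p = 0.937). By FPKM Cited2 led the family in both groups, at 51.1 ± 8.18 in cKO and 52.0 ± 4.18 in WT, and behind it the order turned. In cKO, Cited4 (5.33 ± 1.97 FPKM) and Cited1 (4.33 ± 0.935 FPKM) overlapped. In WT, Cited1 (22.9 ± 2.85 FPKM) stood 35.2-fold above Cited4 (0.651 ± 0.346 FPKM). Cited4 made up 8.78 ± 3.16% of the summed FPKM of the 3 genes in cKO, against 0.886 ± 0.498% in WT, and Cited1 7.09 ± 0.365% in cKO, against 30.3 ± 1.72% in WT. That sum was 60.7 ± 9.84 FPKM in cKO and 75.6 ± 6.39 FPKM in WT. Cited4 was picked for its rise, so its part in the turned order and in these shares follows from that choice. Cited1 was added as a relative, and its fall is given above.

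Cited4 is a short gene, at positions 126543845 to 126545093 of chromosome 4, plus strand, in the coordinates of the files. Its upstream sequence is printed to set it beside those of Ano3.
Cited4, chr4:120666313-120666562 of GRCm38.p6, plus strand: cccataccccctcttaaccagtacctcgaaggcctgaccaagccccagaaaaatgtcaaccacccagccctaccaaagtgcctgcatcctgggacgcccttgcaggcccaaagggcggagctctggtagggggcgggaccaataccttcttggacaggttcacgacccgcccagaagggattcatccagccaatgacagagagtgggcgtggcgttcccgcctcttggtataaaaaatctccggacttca
This window held neither TCF/LEF core and no p53 half-site. It held TATAAA, the TATA box word, with its first base 22 bases before the start, a word that 12.4% of windows hold on either strand. The 3 RefSeq windows of Cited1 held neither core, and 2 of them held TATAAA.

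Partners of CITED proteins gave 0 calls by edgeR, DESeq2 and limma-voom among 16 tested of 18. An unadjusted p under 0.05 was reached by 1 on the high side and 3 on the low side, and the median was 0.11. Ep300, the gene of p300, was at 137 ± 24.7 CPM in cKO libraries, against 195 ± 45.3 in WT (-0.51, edgeR adjusted p = 0.190, and 0.0141 with no filter on low counts). Crebbp, the gene of CBP, chosen after its values were seen, was at 174 ± 36.2 CPM in cKO libraries, against 247 ± 51.4 in WT (-0.50, edgeR adjusted p = 0.199). Hif1a was at 176 ± 14.5 CPM in cKO libraries, against 223 ± 17.9 in WT (-0.34, edgeR adjusted p = 0.183). All cKO values of these 3 genes lay below all WT values, as for 5 of the 16 partners and 10.9% of all tested genes, and 2 partners lay above, as for 10.7%.

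Gpr55 had 250, 107 and 132 counts in cKO libraries 1, 2 and 3, against 25, 14 and 24 counts in WT libraries 1, 2 and 3. In CPM these were 16.46, 7.11 and 7.59 in cKO, against 1.56, 0.931 and 1.44 in WT. The groups did not overlap, and cKO library 1 held 2.31-fold as much as cKO library 2. The log2 fold change was 2.98 (SE 0.398), or 7.87-fold, a description as for Ano3 and Cited4. Without cKO library 1 it was 2.48, and with any 1 library left out it ran from 2.48 to 3.19. The gene lies at positions 90491355 to 90513985 of chromosome 1, minus strand, in the coordinates of the files, and the sequence before its RefSeq start is printed for the same reason as the others.
Gpr55, chr1:85961056-85961305 of GRCm38.p6, minus strand: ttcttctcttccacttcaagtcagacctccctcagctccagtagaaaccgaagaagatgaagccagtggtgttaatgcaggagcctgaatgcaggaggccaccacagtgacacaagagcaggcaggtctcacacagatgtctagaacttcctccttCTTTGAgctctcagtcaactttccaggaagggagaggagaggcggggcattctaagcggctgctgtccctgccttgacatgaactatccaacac
It held CTTTGA once, its first base 94 bases before the start, and no p53 half-site. No motif searched was present in all of the printed windows. This window and the inner one of Ano3 were those with a TCF/LEF core. They are also the 2 of the 11 windows of the members where a stretch shortly after the start was not found unbroken in a GENCODE transcript.

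Among the other receptors for lysolipids and cannabinoids, 13 of 19 were tested, and edgeR and limma-voom called 1 lower and 0 higher. DESeq2 called 1 higher and 1 lower, and an unadjusted p under 0.05 was reached by 2 on the high side and 3 on the low side. Lpar2, a receptor of lysophosphatidic acid, fell to 21.7 ± 2.04 CPM in cKO testes, against 38.5 ± 0.197 in WT (-0.83, SE 0.136, edgeR adjusted p = 0.00670). Lpar3, another receptor of that lipid, chosen after its values were seen, had groups apart at 4.31 ± 1.11 CPM in cKO libraries, against 1.61 ± 0.499 in WT (1.42, edgeR adjusted p = 0.0716). The cannabinoid receptor genes Cnr1 (0.46, edgeR adjusted p = 0.493) and Cnr2 (0.32, edgeR adjusted p = 0.834) overlapped between groups, and they are named for their function, outside the naming rule, as are Gpr18 and Gpr119. Gpr18 had 0 to 13 counts per library in cKO and 4 to 7 in WT, and Gpr119 had 0 in all 6. By FPKM, Gpr55 stood seventh of 14 receptors in cKO at 2.77 ± 1.40, overlapping Lpar2 above it and Lpar6 below it. In WT it stood twelfth at 0.347 ± 0.0867 FPKM, overlapping Gpr174 and Cnr2. S1pr2, a receptor of sphingosine-1-phosphate, led both groups, at 25.2 ± 4.75 FPKM in cKO and 21.0 ± 1.04 FPKM in WT. Its cKO libraries overlapped those of S1pr3, another receptor of that lipid. The median of the 13 was 0.25.

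**Figure D3:**
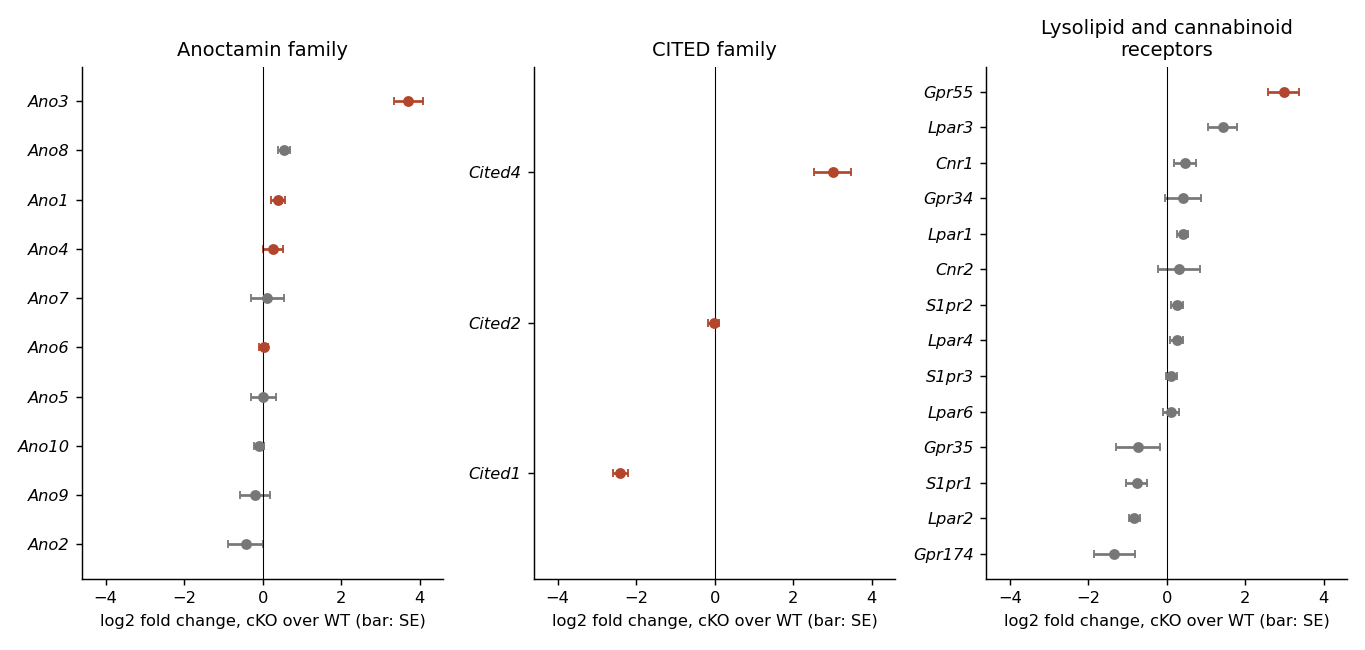
Log2 fold change of cKO over WT with its standard error for the anoctamins, the CITED genes and the lysolipid and cannabinoid receptors that were tested. Ano3 (3.71), Cited4 (3.00) and Gpr55 (2.98) were picked for these rises, so their distance from the other genes shown is no separate result. Cited1 (-2.41) lies on the other side of 0.

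Enzymes that make or remove lysolipids and endocannabinoids were all tested, 21 of 21, and edgeR, DESeq2 and limma-voom each called 2 higher and 0 lower (unadjusted p under 0.05: 2 and 3). Enpp2, the gene of autotaxin, which makes lysophosphatidic acid outside cells, rose to 31.4 ± 3.96 CPM in cKO testes, against 15.5 ± 4.77 in WT (1.02, SE 0.218, edgeR adjusted p = 0.0268). Abhd12, a lipase of lysophosphatidylserine, rose to 72.1 ± 3.97 CPM in cKO testes, against 51.1 ± 1.77 in WT (0.50, SE 0.115, edgeR adjusted p = 0.0413). Ddhd1, a phospholipase that can make the ligand of Gpr55, and Mboat7, which removes that ligand by acylation, were both chosen after their values were seen. Ddhd1 was not called (-0.40, edgeR adjusted p = 0.156), nor was Mboat7 (-0.04, edgeR adjusted p = 0.914) or Plcb3, the most abundant of the list by WT FPKM (0.09, edgeR adjusted p = 0.816). The median of the enzymes was -0.02. The call of Enpp2 was lost without cKO library 3, WT library 1 or WT library 3 (edgeR adjusted p = 0.0880, 0.125 and 0.103). That of Abhd12 was lost without cKO library 1, cKO library 3 or any WT library (0.0715 to 0.198).

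Of the 16 genes of G proteins and their effectors, all tested, 2 were called higher and 0 lower by edgeR and limma-voom, and 2 higher and 2 lower by DESeq2 (unadjusted p under 0.05: 3 and 2). Rhob, a small GTPase gene, rose to 339 ± 22.5 CPM in cKO testes, against 239 ± 19.8 in WT (0.51, SE 0.121, edgeR adjusted p = 0.0456). Nfatc4, a transcription factor gene of the calcium-calcineurin route, rose to 121 ± 4.04 CPM in cKO testes, against 78.9 ± 14.7 in WT (0.61, SE 0.140, edgeR adjusted p = 0.0370). The median of the list was 0.08. The call of Rhob was lost when any of the 6 libraries was left out (edgeR adjusted p of 0.0675 to 0.236), and that of Nfatc4 without cKO library 2, cKO library 3, WT library 1 or WT library 3 (0.0502 to 0.201).

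**Figure D4:**
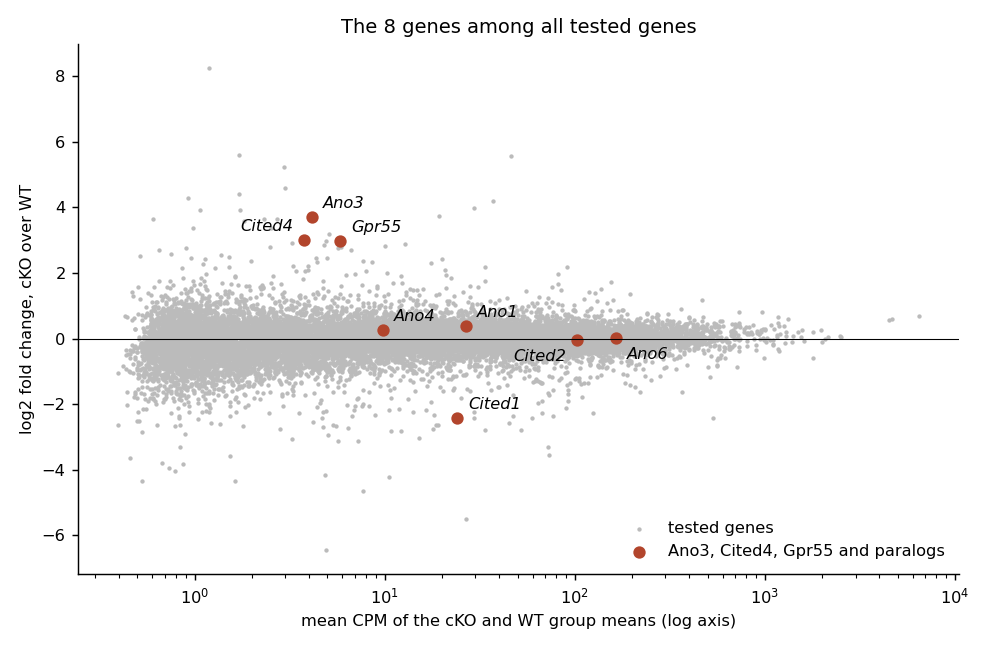
Log2 fold change of cKO over WT against mean CPM (log axis) for the 18383 tested genes, with the 8 genes marked. Ano3, Cited4 and Gpr55 sit at 4.15, 3.77 and 5.85 CPM on the high side, Cited1 sits on the low side, and the other 4 lie near 0.

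Within the groups the 3 picked genes did not order the libraries alike. In cKO, Gpr55 and Cited4 were highest in library 1 and Ano3 in library 2, Gpr55 was lowest in library 2, and Ano3 and Cited4 were lowest in library 3. In WT, Ano3 was lowest in library 1, whereas Cited4 and Gpr55 were lowest in library 2. The counts behind the WT values were small, 5 to 25 per library over the 3 genes.

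The profiles most like these were sought over the 6 libraries among 13527 other protein-coding genes that averaged 2 CPM or more. Likeness was the Euclidean distance between log2 CPM profiles centred on each gene's mean, so a short distance mostly says that a gene differed between the groups by a like amount. Nearest to Ano3 were Kcng1, a potassium channel subunit gene (0.732), Wif1, a secreted Wnt inhibitor (0.906), and Wnt7b, a Wnt ligand (1.05). Nearest to Cited4 were Zfp365 (1.06), Gpr55 (1.11) and Rnf43, which takes Wnt receptors off the cell surface (1.20). Nearest to Gpr55 were Zfp365 (0.530), the transcription factor gene Runx1 (0.640) and Fcgr2b, an inhibitory receptor for IgG (0.723). Like Gpr55, Runx1 was highest in cKO library 1, with 48.9 CPM there, 23.8 in cKO library 2 and 28.8 in cKO library 3. Fcgr2b had 15.6, 6.38 and 7.71 CPM in the same libraries. Kcng1 (68.2 CPM), Wnt7b (13.9 CPM), Zfp365 (22.8 CPM) and Rnf43 (29.8 CPM) were highest in cKO library 1 too, and Wif1 in cKO library 2 (9.37 CPM). Ano3 lay 1.69 from Cited4 and 1.59 from Gpr55. Relatives lay farther off, Ano4 4.06 and Ano6 4.32 from Ano3, with Ano1 a little nearer than Ano4. Cited2 lay 3.91 and Cited1 6.69 from Cited4. Ano3, Cited4 and Gpr55 were picked for their difference between the groups, which this distance mostly reflects. A gene without a like rise therefore had to lie farther off, so these distances are no separate evidence of a contrast.

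**Figure D5:**
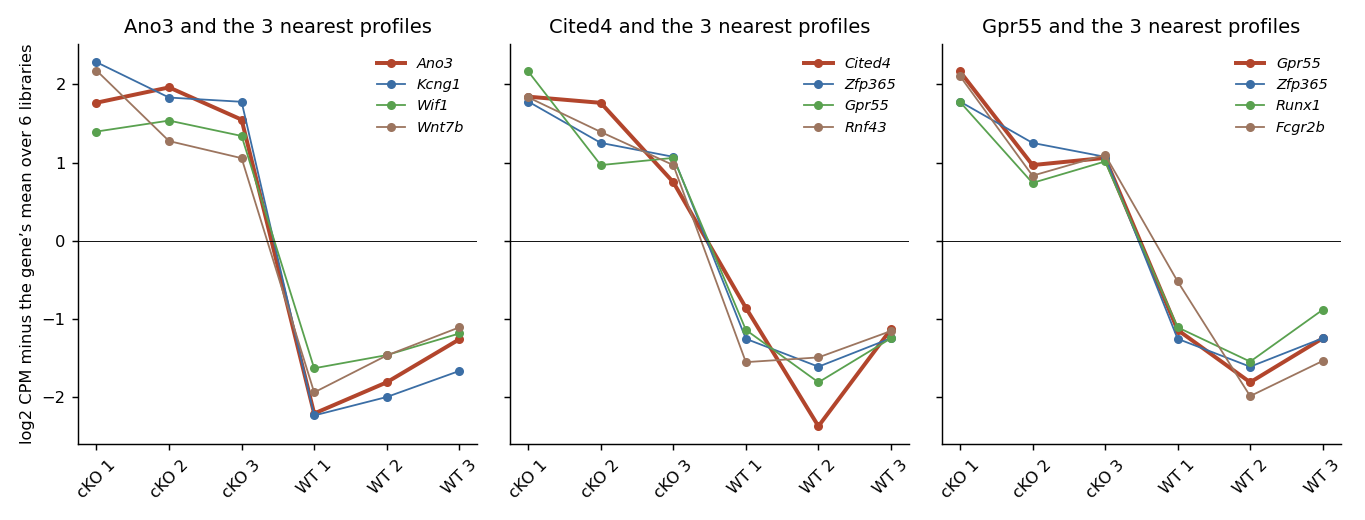
Log2 CPM centred on each gene's mean for Ano3, Cited4 and Gpr55 and the 3 genes nearest to each, cKO libraries left of WT libraries. The lines only join the points of 1 gene, and all genes shown lie above 0 in cKO and below 0 in WT.

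Genes beside the 3 loci gave 0 calls by edgeR and limma-voom among 8 tested of 18, the 3 nearest on each side in the coordinates of the files. An unadjusted p under 0.05 was reached by 4 on the high side and 0 on the low side, DESeq2 called 2 higher, and the median was 0.50. With no share of all tested genes at that unadjusted cutoff, the 4 cannot be weighed against a background. All cKO values lay above all WT values for 5 of the 8 and below for 0, as for 10.7% and 10.9% of all tested genes. They were Fibin beside Ano3 and every tested gene beside Gpr55, whereas each tested gene beside Cited4 overlapped between the groups. Beside Ano3, Fibin was not called (0.55, edgeR adjusted p = 0.139) and the other 5 did not pass the filter. Beside Cited4, Ctps (0.02) and Nfyc (-0.11) were not called. Beside Gpr55, Itm2c was at 364 ± 38.8 CPM in cKO libraries, against 247 ± 36.3 in WT (0.56, edgeR adjusted p = 0.0628, DESeq2 adjusted p = 0.00559). Cab39 (0.13) and 2810459M11Rik (1.23) were not called, though for these genes and Itm2c every cKO library lay above every WT library. Gm28100, on the strand of Gpr55 and 11.4 kb from it, did not pass the filter. It had 19, 7 and 8 counts in cKO libraries 1, 2 and 3, against 4, 1 and 2 in WT libraries 1, 2 and 3. Gm28884, a transcript on the strand of Gpr55 that lies 0.986 kb from it on the lower coordinate side, had 73, 17 and 31 counts in cKO libraries 1, 2 and 3, against 8, 4 and 10 in WT libraries 1, 2 and 3. Like Gpr55 it was highest in cKO library 1 and lowest in cKO library 2 among the cKO libraries, and it was not called (2.47, SE 0.638, edgeR adjusted p = 0.0668). It was called higher by DESeq2 (adjusted p = 0.00712), and by edgeR with no filter on low counts (0.00106) and without cKO library 2 (2.83, edgeR adjusted p = 0.0163).

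Overlapping genes held few reads. Muc15, a mucin gene inside Ano3 on the other strand, had 1, 3 and 9 counts in cKO libraries 1, 2 and 3, against 1, 0 and 7 in WT libraries 1, 2 and 3. 4933407L21Rik, which shares 2308 bases with Gpr55 on the other strand, had 7 to 12 counts per library in cKO and 7 to 12 in WT. Ano6 shares 800 bases with A130051J06Rik and 5566 with Gm17546, which had 12 to 27 and 2 to 7 counts per library in cKO and 11 to 21 and 6 to 11 in WT. The strand setting of the counting is not stated, so reads in shared stretches cannot be assigned to 1 gene of such a pair.

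Markers of other cell types were set beside the picked genes. Those of pregranulosa cells, which support the oocytes of the fetal ovary, summed to 289.7 to 348 CPM in cKO, against 104 to 126 CPM in WT. Of 7 tested of 8, 3 were called higher (Wnt4, Runx1 and Foxl2) and 0 lower by edgeR, DESeq2 and limma-voom, and an unadjusted p under 0.05 was reached by 5 and 0. Their part in the differences of Ano3, Cited4 and Gpr55 was not tested. Neuronal markers, set beside Ano3, summed to 20.4 to 29.0 CPM in cKO, against 47.2 to 59.4 CPM in WT, and 1 of 7 tested, Tubb3, was called lower (-1.48, edgeR adjusted p = 0.00229). Schwann cell and glial markers summed to 33.2 to 40.5 CPM in cKO, against 62.7 to 65.3 CPM in WT, and of 5 tested, Sox10 was called lower by edgeR (-1.85, adjusted p = 0.00711), with 3 lower by DESeq2 and 3 at an unadjusted p under 0.05. Leydig cell markers summed to 5005 to 6844 CPM in cKO, against 3794 to 4497 CPM in WT, with 0 of 6 called by edgeR, 2 higher by DESeq2, 1 higher by limma-voom and 4 higher at an unadjusted p under 0.05. Interstitial progenitor markers summed to 12094 to 20368 CPM in cKO, against 8285 to 13529 CPM in WT, with 0 of 7 called by edgeR and limma-voom, 3 higher by DESeq2, 7 higher at an unadjusted p under 0.05 and a median log2 fold change of 0.47. Endothelial markers summed to 478 to 585 CPM in cKO, against 441 to 526 CPM in WT, and 1 of 7, Kdr, was called higher by edgeR (0.66, adjusted p = 0.0157). Markers of the mesonephros and its ducts summed to 64.5 to 83.4 CPM in cKO, against 41.2 to 58.7 CPM in WT, and 1 of 8, Emx2, was called higher by edgeR (1.06, adjusted p = 0.00839). Peritubular myoid markers summed to 752 to 854 CPM in cKO, against 934 to 1107 CPM in WT, with Des called higher and Ptch1 lower. Germ cell markers summed to 522 to 930 CPM in cKO, against 746 to 1048 CPM in WT, with 0 of 7 tested called. Adrenal and chromaffin markers summed to 32.9 to 55.0 CPM in cKO, against 36.5 to 56.5 CPM in WT, and Pnmt was called lower. Erythroid markers summed to 38.3 to 107 CPM in cKO, against 44.7 to 53.8 CPM in WT, with 0 called. The part of these cells in the differences was not tested either. Macrophage and leukocyte markers, set beside Gpr55, summed to 63.5 to 75.4 CPM in cKO, against 57.1 to 75.4 CPM in WT, Itgam had 0 to 1 counts per library, and 0 of 9 tested were called by edgeR, DESeq2 or limma-voom (1 higher at an unadjusted p under 0.05). Mast cell markers summed to 15.6 CPM in cKO library 1, the library with the most Gpr55, 2.26 and 3.51 CPM in cKO libraries 2 and 3, and 2.36 to 4.79 CPM in WT. Fcer1a and Mcpt4 had 0 counts in all 6 libraries, and 0 of 3 tested mast cell markers were called by edgeR, DESeq2 or limma-voom, or had an unadjusted p under 0.05. Lymphocyte markers summed to 1.66 to 4.81 CPM in cKO, against 3.77 to 4.92 CPM in WT. The part of blood cells in the level of Gpr55 in cKO library 1 was not tested.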

How the data were processed

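Poly(A)-selected RNA of E16.5 testes was sequenced in 3 cKO and 3 WT libraries. Gene counts were deposited by the authors unnormalised, with HISAT2 2.0.5 and GRCm38 named per the submitters' processing notes, while per the file headers the gene identifiers and coordinates are of C57BL/6NJ. FPKM values were deposited by the authors per gene length and library total. The sources used here do not give the counting program or its strand setting. Counts were scaled by TMM, filtered with filterByExpr and tested with edgeR 4.0.16 (R 4.3.3), cKO against WT, with DESeq2 1.42.0 and limma 3.58.1 (voom, and trend on log2 FPKM) as alternatives among 16 in all. Intervals are of the fitted spread. The members and lists were chosen with earlier results of these data known. The text names the members, the called genes of each list, the most abundant and a few others by the fixed rule, and says where a gene was chosen later. On simulated counts for 18383 genes with 200 changed, 47% of changes of 1 and 80% of changes of 2 on the log2 scale were recovered, and 12 of 139 calls were of unchanged genes. Replicates differed by more than sampling noise. Promoter windows came from RefSeq. A neighbour of Cited4 is not reported here by name.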

Additional observations from a re-analysis of the deposited data

How the results depend on the processing

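Genes called higher numbered 276, and 527 with DESeq2, 149 and 156 with limma on log2(FPKM + 0.1) and log2(FPKM + 1), and 613 with no filter on low counts. Genes called lower numbered 339, and 574 with DESeq2, 223 with limma on log2(FPKM + 0.1) and 651 with no filter. With 1 library left out they ran from 105 to 342 higher and from 167 to 399 lower. On the FPKM scale the pseudocount shrinks low genes by construction: the log2 fold change of Ano3 was 2.70 with a pseudocount of 0.1 and 0.93 with 1, and with 1 that of Cited4 was 1.91 and that of Gpr55 1.43. With 1 library left out Ano3 ran from 3.47 to 4.07, Cited4 from 2.65 to 3.34 and Gpr55 from 2.48 to 3.19. The calls of Enpp2, Kcnt1, Clca1, Rhob and Nfatc4 were lost in both limma fits on FPKM (adjusted p = 0.0548 to 0.107) and that of Abhd12 in edgeR on library totals alone (0.0634). Ano8, Plscr3, Itm2c and Gm28884 were called higher by DESeq2 (adjusted p = 0.00559 to 0.0360) and by edgeR with no filter (0.00106 to 0.0487). No call of Ano1, Ano4, Ano6, Cited1 or Cited2 changed in any of the 16 alternatives.

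With a replicate block 324 genes were called higher and 372 lower, Ano3 was at 3.72, Cited4 at 2.99 and Gpr55 at 2.91. Deviations of same-numbered libraries correlated at 0.0172, 0.184 and 0.0325. The sources used here do not say that the numbers pair the libraries, so the main fit used no block. The highest correlation of cKO library 2 was with WT library 2 (0.184), and that of cKO library 3 with WT library 3 was near 0 (0.0325). That of cKO library 1 was with WT library 3 (0.157). The deviations were centred within each group, so these values constrain each other. They cannot decide whether the libraries were paired. Itm2c was called higher under the replicate block (adjusted p = 0.0196). Low counts limit Ano3, Cited4 and Gpr55 in WT.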
